A study of Homo sapiens with 4 samples.

Results

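In cells of the Hodgkin lymphoma line KM-H2, 128 of 19775 genes differed at least 2-fold, in the same direction, between the array numbered 2 and the array numbered 1 of both treatments. The genes were chosen by that rule alone: on the log2 scale, the number 2 value minus the number 1 value had to be at least 1 in size, with the same sign, in the pair of non-silencing arrays and in the pair of PTPN1 knockdown arrays. Of the 128 genes, 110 were higher and 18 were lower in the arrays numbered 2, which is 0.556% and 0.091% of all genes. Each difference was taken within a treatment, so the knockdown did not enter it. The genes were selected on these differences, which are therefore given as a description.

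The 4 arrays were Affymetrix expression arrays of total RNA. A pair came from KM-H2 cells in which PTPN1 was knocked down and a pair from KM-H2 cells with a non-silencing control, and the sources used here do not give the agent, dose or time of the knockdown. The cells were grown under the standard conditions of the line, their RNA was isolated with column kits, and a 2-cycle amplification turned it into biotinylated cRNA. The series describes the arrays of a treatment as technical replicates, and the p-values here measure only the spread between these arrays. The labels give each treatment an array numbered 1 and an array numbered 2 and do not say what the numbers share. Steps of the preparation that could separate them cannot be told apart, and the numbers carry no order. KM-H2 is 1 cell line, derived from the Hodgkin and Reed-Sternberg cells of that lymphoma. Of its defining transcripts, TNFRSF8, which encodes CD30, read 8.82 and 8.16 in the non-silencing pair and 9.32 and 8.33 in the knockdown pair (numbers 1 and 2 in each). These values were at or above the 83.2 percentile of all probe sets of each array. On that scale FSCN1, CD83 and IRF4 lay at or above the 89.3 percentile, and the chemokine gene CCL22 from the 53.5 to the 57.5 percentile. CCL22 read 5.27 to 5.52, below the median of the genes of each array, 6.02 to 6.06. All values are log2 expression values, in which 1 unit is a 2-fold difference. Where 4 values of a gene are given, non-silencing arrays 1 and 2 come first and knockdown arrays 1 and 2 follow.

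Members of the gene lists described here belong to well known programmes. Interferon-inducible genes encode antiviral proteins and are switched on when interferon receptors signal through JAK kinases to STAT and IRF factors, which bind short promoter elements. The actin cytoskeleton carries adhesion and shape, and ACTA2, CALD1 and related genes are known from smooth muscle and myofibroblasts. Ribosome assembly, oxidative phosphorylation and mitosis are programmes of growing cells, and MYC is known as an activator of ribosome assembly genes. Hodgkin lymphoma cells have lost much of their B cell programme and are known for active JAK-STAT and NF-kB signalling.

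The non-silencing pair held 266 genes at least 2-fold apart, of which 204 were higher and 62 lower in number 2. The knockdown pair held 354 such genes, 296 higher and 58 lower. The 128 genes shared by both with the same sign made up 48.1% of the first list and 36.2% of the second, and only COL15A1 and GAS1 were at least 2-fold apart in opposite directions. These pairs have no array in common. Across all genes the difference in one pair correlated with the difference in the other with a Pearson r of 0.648 and a Spearman rho of 0.547, a description over genes, which are not independent replicates and share the 4 hybridisations. The sign was the same for 67.6% of genes. Among the 110 higher genes the difference had a median of 1.40 (range 1.001 to 3.22) in the non-silencing pair and of 1.54 (range 1.001 to 3.67) in the knockdown pair, and 72 of them were further apart in the knockdown pair. At least 4-fold in both pairs were 6 genes. Among the 18 lower genes the medians were -1.26 and -1.25. For 109 of the 110 higher genes both arrays numbered 2 read above both numbered 1 (23.5% of all genes), and all 18 lower genes had the opposite order (29.2% of all genes). The rule nearly fixes this order, so nothing is read from these counts.

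**Figure D1:**
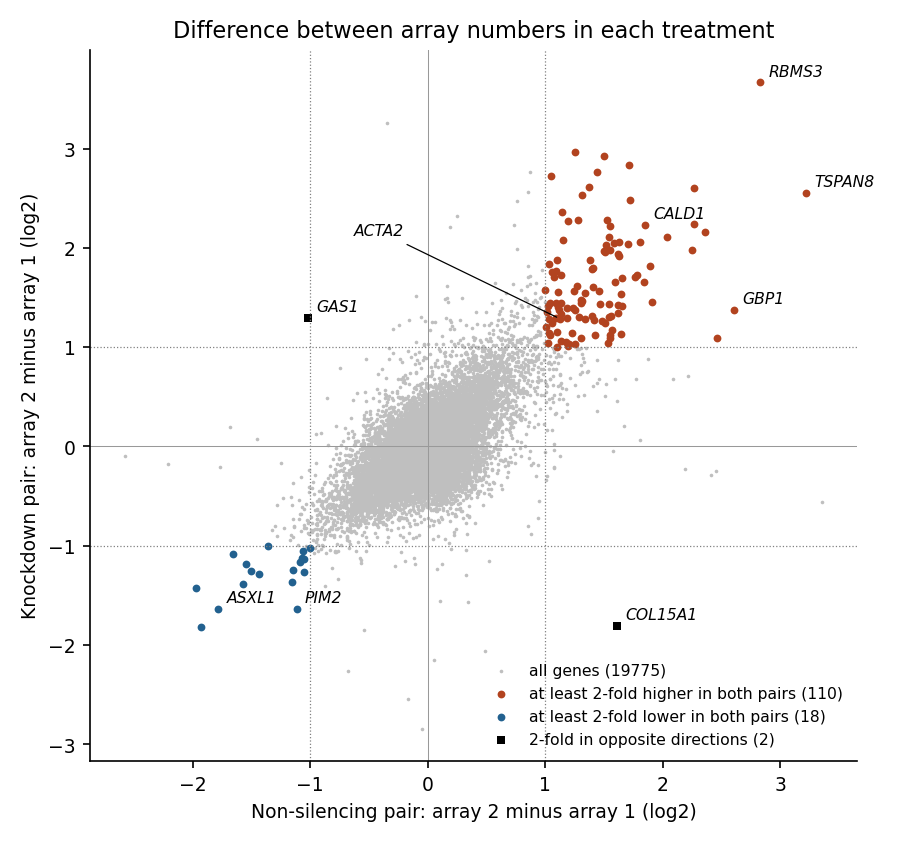
Each point is a gene, with the log2 difference of number 2 minus number 1 in the non-silencing pair on the x axis and in the knockdown pair on the y axis; dotted lines mark 2-fold. The 110 genes higher in both pairs lie at the upper right, the 18 lower genes at the lower left, and COL15A1 and GAS1 in the corners of opposite sign.

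RBMS3, which encodes an RNA-binding protein, had the largest difference that both pairs shared. It read 5.57 and 8.39 in the non-silencing arrays numbered 1 and 2, and 3.78 and 7.45 in the knockdown arrays. Both arrays numbered 2 were well above both numbered 1, and the lowest value was that of knockdown array 1. The fold was 12.7 in the knockdown pair, and 2 of the 6 other RBMS3 probe sets were at least 2-fold higher in both pairs. TSPAN8, a tetraspanin of the cell surface, read 4.52 and 7.74 in the non-silencing pair and 3.58 and 6.14 in the knockdown pair. Its difference was the larger one in the non-silencing pair, 9.33-fold against 5.89-fold. ABCA12, a lipid transporter known from skin, read 4.03 and 6.29, then 3.35 and 5.95, and both number 1 values lay below 4.09, the lower quartile of all values on the arrays. SNX7, a sorting nexin of endosomes, read 5.07 and 7.34, then 3.77 and 6.02, so that its differences of 2.27 and 2.24 were nearly equal. SERPINB10, a protease inhibitor of blood cells, read 4.19 and 6.55, then 3.56 and 5.72. In all of these genes both number 2 arrays were above both number 1 arrays, although the arrays of 1 number also differed between treatments, for SNX7 by -1.30 and -1.32 (knockdown minus non-silencing).

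The rest of the 12 highest were GBP3 and FCRLA, described with their groups, and CALD1, TNFSF4, TFPI, PLCL1 and PLD5. PLCL1, an inactive relative of phospholipase C, read 4.19 and 5.97, then 3.94 and 5.67. PLD5, a member of the phospholipase D family, read 4.56 and 6.28, then 3.87 and 6.36. In both genes the number 1 values were low, and the size of a difference that starts from a dim value is uncertain on arrays of this kind. Of the 110 higher genes, 18 had at least 1 number 1 value below 4.09 and 6 had both. The median over all 110 was 6.08 in number 1 and 7.72 in number 2, against 6.02 and 6.05 over all genes.

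**Figure D2:**
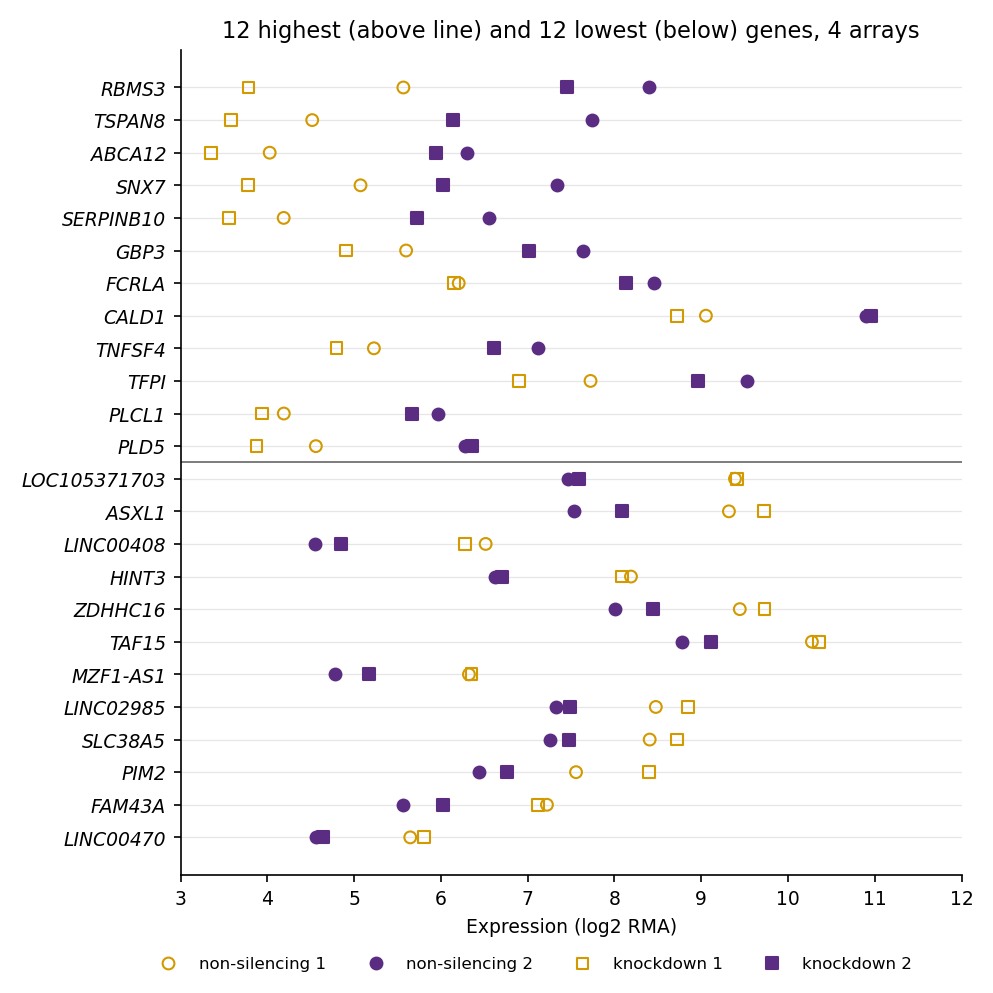
Log2 expression (x axis) of the 12 genes with the largest shared positive difference (above the line) and the 12 with the largest shared negative difference (below it). Circles are non-silencing and squares knockdown arrays, open for number 1 and filled for number 2; in every row both filled symbols lie on the same side of both open ones.

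Among the 110 were 5 interferon-inducible genes: GBP1, GBP3, IFIT1, SAMD9 and SAMD9L. GBP1 and GBP3 are large GTPases induced by interferon-gamma. GBP1 read 5.64 and 8.25 in the non-silencing pair and 5.53 and 6.91 in the knockdown pair. GBP3 read 5.60 and 7.64, then 4.90 and 7.02. The number 1 arrays agreed within 0.11 for GBP1, whereas the number 2 arrays differed by 1.34, with the non-silencing array the higher. IFIT1, which binds viral RNA that lacks the host's cap methylation, read 4.43 and 5.93, then 4.35 and 6.31. SAMD9 and its neighbour SAMD9L, restriction factors of poxviruses, were also higher: SAMD9 read 6.61 and 7.80, then 5.42 and 7.69. SAMD9L read 7.01 and 8.60, then 6.06 and 8.10. For SAMD9 the number 2 arrays were alike and knockdown array 1 was the low one.

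Promoters of the 110 genes were read from a RefSeq table of GRCh38.p14 that holds the 250 bases before and 50 after a gene's start and matched 96 of them. The interferon-stimulated response element was searched on both strands as the letters GAAA, any 2 bases, and GAAA again. It was found in 8 of the 96 promoters (8.33%), in 0 of the 15 promoters matched for the lower genes, in 2.94% of the promoters of all genes tested and in 3.65% of all promoters in the table. The 8 were those of GBP1, GBP3, IFIT1, SAMD9, FCRLA, ACTA2, GPC6 and MAPK10. A match is a description of letters and not a site of binding. The promoters of the interferon-inducible genes among them are shown 5′ to 3′ on the gene's own strand because these genes were higher together in both pairs, with the matches in capitals. They lie at chr1:89065159-89065458 (minus strand), chr1:89022817-89023116 (minus strand), chr10:89392373-89392672 (plus strand) and chr7:93117930-93118229 (minus strand) of GRCh38.p14.
GBP1: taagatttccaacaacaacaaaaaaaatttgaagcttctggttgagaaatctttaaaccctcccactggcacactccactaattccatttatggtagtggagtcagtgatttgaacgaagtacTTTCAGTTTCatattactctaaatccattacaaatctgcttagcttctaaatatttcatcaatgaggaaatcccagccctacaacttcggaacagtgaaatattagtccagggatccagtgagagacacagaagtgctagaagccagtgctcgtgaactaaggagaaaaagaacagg
GBP3: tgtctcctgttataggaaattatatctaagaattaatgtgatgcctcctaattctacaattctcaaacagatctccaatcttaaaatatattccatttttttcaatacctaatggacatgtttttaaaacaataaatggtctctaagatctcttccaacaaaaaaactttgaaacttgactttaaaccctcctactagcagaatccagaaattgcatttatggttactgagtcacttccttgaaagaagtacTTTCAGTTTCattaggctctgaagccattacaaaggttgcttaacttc
IFIT1: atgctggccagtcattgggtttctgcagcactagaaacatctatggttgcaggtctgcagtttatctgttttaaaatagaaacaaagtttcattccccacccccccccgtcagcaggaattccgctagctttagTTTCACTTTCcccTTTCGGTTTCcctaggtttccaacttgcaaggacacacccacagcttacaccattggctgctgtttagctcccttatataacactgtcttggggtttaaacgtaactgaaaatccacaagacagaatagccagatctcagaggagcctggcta
SAMD9: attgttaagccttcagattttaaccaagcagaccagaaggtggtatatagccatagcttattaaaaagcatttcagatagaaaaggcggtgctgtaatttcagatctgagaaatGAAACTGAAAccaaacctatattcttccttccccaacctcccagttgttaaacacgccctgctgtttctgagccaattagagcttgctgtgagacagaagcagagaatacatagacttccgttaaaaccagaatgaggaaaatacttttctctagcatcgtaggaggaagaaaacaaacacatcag
The first match began at position -127 from the start of GBP1, 3 of GBP3, -116 of IFIT1 and -136 of SAMD9, and IFIT1 held 2 matches. The capital letters of GBP1 and GBP3 are the same run, within promoters of neighbouring genes of 1 family.

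Over whole lists, the interferon genes were split. Each gene was tested in limma with terms for treatment and number, with Benjamini-Hochberg adjustment over all 19775 genes, and 1948 genes (9.85%) passed, 1069 higher (5.41%) and 879 lower (4.45%) in number 2. All 128 genes of the 2-fold rule were among them, with the lowest adjusted p at 0.00563, which is no support, since the rule used the same contrast. These calls rest on all 4 arrays. Without non-silencing array 1, with number alone as the term, 12 genes were called higher and 4 lower; without non-silencing array 2, knockdown array 1 or knockdown array 2, 0 were called. An unmoderated linear model called 0 genes, with 5314 at an unadjusted p under 0.05 in the moderated fit. With 2 arrays against 2, no exact permutation test of a single gene can go below a p of 0.333.

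Of 44 type I interferon-stimulated genes measured, 9 were called higher and 3 lower in number 2, and their median difference was 0.09 in the non-silencing pair and 0.11 in the knockdown pair, against -0.01 and -0.04 over all genes. IFIT2, a relative of IFIT1, was higher by 0.90 (SE 0.13, limma adjusted p = 0.0197), and XAF1, an interferon-induced pro-apoptotic gene, by 0.81 (SE 0.10, limma adjusted p = 0.0156). ISG15, the ubiquitin-like modifier of this response, went the other way, at -0.51 (SE 0.10, limma adjusted p = 0.0356), as did IFI35 and BST2. IFIT5 (0.73, limma adjusted p = 0.0539) and TRIM22 (0.72, limma adjusted p = 0.0529) did not pass. Of 30 interferon-gamma-type genes, 8 were called higher and 2 lower. The chemokine gene CXCL10 read 11.60 and 12.22 in the non-silencing pair and 10.31 and 11.79 in the knockdown pair, a mean difference of 1.05 (SE 0.20). CXCL11 was higher by 1.28 (SE 0.18), and GBP2 by 1.46 (SE 0.33). The immunoproteasome gene PSMB10 was lower by -0.92 (SE 0.12). Of 17 genes of double-stranded RNA sensing, 7 were called higher and only ISG15 lower, and the list's median was 0.35 in both pairs. Its median over the mean differences was 0.373, and 0.159 when each gene took the average of its probe sets. TLR7, the receptor for single-stranded RNA on that list, differed by 0.995 (SE 0.21, limma adjusted p = 0.042). The lists overlap: IFIT1, IFIT2, OAS1, IFIH1, EIF2AK2 and ISG15 stand on 2 of them, as does CXCL10.

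ACTA2, the actin of smooth muscle and myofibroblasts, read 8.48 and 9.61 in the non-silencing pair and 8.17 and 9.46 in the knockdown pair. The arrays numbered 2 were higher in both treatments, by 1.13 and 1.28, and the groups did not overlap. The difference rests on 1 probe set. Its other probe sets were dim, from 2.96 to 3.81, and differed by 0.09 and 0.20, and by 0.31 and 0.21. CALD1, which encodes the actin-binding protein caldesmon, read 9.05 and 10.90, then 8.72 and 10.96. Its number 2 arrays were nearly equal, and 4 of its 10 other probe sets were also at least 2-fold higher in both pairs. Of 24 cytoskeletal and contractile genes regulated by SRF and MRTF factors, however, VCL was the only other one called (0.47, limma adjusted p = 0.0454), and the list's medians were 0.03 and 0.08. TPM4 (0.32) and LMOD1 (-0.32) did not pass. Of 18 fibroblast and stromal markers, 1 was called: COL1A1, a fibrillar collagen, read 9.36 and 10.01, then 8.63 and 9.78. The defining markers COL1A2, COL3A1, DCN, LUM and PDGFRB all lay between 3.60 and 5.54 on all arrays. PDGFRA and VIM of the same list were bright without passing, PDGFRA at 9.47 and 10.48, then 10.70 and 10.41, and VIM with a mean difference of 0.44 (limma adjusted p = 0.0684). In a bulk sample fewer cells of a type and less RNA per cell cannot be told apart.

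The rule also chose other genes of the cytoskeleton. Members were grouped by known role after their values were seen, and 91 of the 128 were given a role. Every gene of such a group had met the rule, which places the median of a higher group above 1 in both pairs. Over all 110 higher genes the medians were 1.40 and 1.54. The 10 genes of the actin, microtubule and membrane skeleton, ACTA2 and CALD1 included, had median differences of 1.31 in the non-silencing pair and 1.62 in the knockdown pair. DMD, which encodes dystrophin, read 7.26 and 8.35, then 7.23 and 8.68. ANK3, which encodes the membrane adaptor ankyrin-G, read 7.59 and 8.91, then 5.79 and 8.32, and knockdown array 1 was its low point. MAP2, a microtubule protein of neurons, differed by 1.38 and 2.62. The motor subunit genes KIF13A and KIFAP3, the dynamin gene DNM3, MAP7D2 and the myosin-binding protein gene MYBPC1 completed the group. The rule further chose 3 axonemal genes, and no list of such genes was measured. RSPH1, of the radial spoke, read 8.41 and 10.002, then 9.75 and 11.41. DNAH12, a dynein heavy chain, differed by 1.54 and 2.11, and CFAP58 by 1.13 and 1.45.

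The 10 genes of adhesion, matrix and cell contact that the rule chose had medians of 1.25 and 1.78. ITGAV, the alpha-V integrin, read 8.40 and 9.66, then 8.27 and 9.30. FERMT2, which encodes the integrin activator kindlin-2, read 4.60 and 6.004, then 3.51 and 5.31. FREM2, an extracellular matrix protein, was the most uneven, with 6.36 and 7.62 in the non-silencing pair and 4.94 and 7.90 in the knockdown pair. Its difference was 1.25 in one pair and 2.96 in the other. The basement membrane gene NID2, the glypican gene GPC6, ITGBL1, FLRT3, MEGF10 and TSPAN2 were the others. BMPR1B, a receptor for bone morphogenetic proteins, read 6.81 and 8.29, then 6.47 and 7.74. SMAD6, an inhibitor of the same pathway, read 6.91 and 8.11, then 6.06 and 7.07. The 3 other probe sets of SMAD6 did not share that difference and ranged from -0.13 to 0.30, and with the brightest probe set that has no shared-sequence mark in its name the mean difference was -0.07. Of 19 TGF-beta targets, SMAD6, SKIL (0.80, limma adjusted p = 0.0217) and COL1A1 were called higher and ITGAE lower.

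Genes of lymphocyte and leukocyte signalling numbered 8 among the higher ones. FCRLA, an intracellular Fc receptor-like protein of B cells, read 6.20 and 8.46, then 6.15 and 8.14. Its number 1 values agreed within 0.05 and its 2 other probe sets were also more than 2-fold apart. TNFSF4, the OX40 ligand, read 5.23 and 7.12, then 4.79 and 6.61. CD48 and its neighbour SLAMF7, receptors of the SLAM family, differed by 1.17 and 1.06, and by 1.84 and 1.66. SLAMF7 started from 3.77 in non-silencing array 1, and both its knockdown values were above their non-silencing counterparts. The other probe sets of SLAMF7 were not 2-fold apart between numbers, and differed by 0.12 and 0.09, and by 0.43 and -0.05. SAMSN1, an adaptor of B cell activation, read 9.32 and 10.94, then 8.67 and 10.73. LY75, an endocytic receptor of dendritic cells, PLEK, a platelet and leukocyte protein, and CYSLTR1, a leukotriene receptor, completed the group. Of 20 B cell markers, 5 were called higher (25%, against 5.41% of all genes). Among them were CD24 (1.13, limma adjusted p = 0.0187) and IGKC (0.56, limma adjusted p = 0.0291), while IGHM (-1.19, limma adjusted p = 0.148) did not pass. Nor did the defining markers PAX5, MS4A1, CD79A, CD79B and CD22, and the list's medians were 0.01 and 0.08. CIITA, also called, stands on the interferon-gamma-type list as well. The IGKC difference was -0.23 with the brightest probe set that has no shared-sequence mark.

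The 9 genes of steroid, retinoid, xenobiotic and lipid handling had medians of 1.32 in both pairs. AKR1C1, AKR1C2 and AKR1C3, adjacent aldo-keto reductases, differed by 1.32 and 1.47, by 1.40 and 1.32, and by 1.55 and 2.22. They are close paralogs whose probes may share signal, so they do not count as 3 independent measurements. CYP4X1, a cytochrome P450, read 6.94 and 8.46, then 4.80 and 7.09. CYP1A1, the cytochrome induced by aryl hydrocarbons, read 6.84 and 8.04, then 6.33 and 7.36, and ALDH1A1, a retinaldehyde dehydrogenase, 8.26 and 9.29, then 7.44 and 8.59. STARD4, a sterol carrier, read 8.61 and 9.71, then 8.36 and 9.36, and belongs to a list of 23 genes of cholesterol synthesis and sterol response. Of these, 6 were called higher (26.1%, against 5.41% of all genes) and 0 lower. That list's median was 0.53 in the non-silencing pair and 0.25 in the knockdown pair. INSIG1, a sterol sensor, was higher by 0.85 (SE 0.11), HMGCS1, of the mevalonate pathway, by 1.07 (SE 0.19) and MSMO1, of late sterol synthesis, by 1.01 (SE 0.23). IDI1 (0.80, limma adjusted p = 0.0519) did not pass.

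Proteins of coagulation and protease control made up 5 genes. TFPI, the inhibitor of tissue factor, read 7.72 and 9.53, then 6.90 and 8.96, and 2 of its other 4 probe sets were also at least 2-fold apart in both pairs. F5, coagulation factor V, read 7.94 and 9.56, then 6.34 and 8.28. LGMN, a lysosomal protease, and NAPSA, an aspartic protease, differed by less, 1.04 and 1.44, and 1.25 and 1.38. Cyclic nucleotide and phospholipid enzymes included the phosphodiesterase genes PDE7B (1.40 and 1.79) and PDE5A (1.24 and 1.57) and the phospholipase gene PLCB1 (1.15 and 2.08).

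YPEL5 and SESN1 are genes linked with growth arrest. YPEL5 read 9.10 and 10.51, then 8.64 and 10.25. SESN1, a p53 and FOXO target that restrains mTORC1, read 8.42 and 9.73, then 8.28 and 9.38. Of 18 genes that respond to culture density and serum, 6 were called higher (33.3%, against 5.41% of all genes) and 0 lower, with a median near 0.21 in both pairs. CCNG2, a cyclin of arrested cells just outside the 2-fold rule, read 7.51 and 8.86, then 8.08 and 9.07. ARRDC4 was higher by 1.16 (SE 0.16), SESN3 by 1.05 (SE 0.11) and YPEL3 by 0.63 (SE 0.10). Of 23 p53 targets, 4 were called higher (17.4%) and 0 lower, with medians of 0.10 in both pairs. The 4 were SESN1, CCNG1 (0.76), ZMAT3 (0.69) and FAS (0.46). The histone genes H2BC4 and H2BC21 differed by 1.53 and 1.05, and by 1.41 and 1.28. Of 20 clustered histone genes 6 were called higher (30%), among them H2BC5 (1.05) and H2BC12 (0.86), which are near-identical copies whose probes may share signal.

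Among transcription factors, HLF, a PAR bZIP factor, read 4.67 and 6.57, then 4.23 and 5.68. HBP1, a repressor of the cell cycle, ARID5B, ZBTB10 and CREBZF differed by 1.02 to 1.55 in the non-silencing pair and by 1.04 to 1.56 in the knockdown pair. HOPX, a homeodomain protein that does not bind DNA, read 4.70 and 5.74, then 6.70 and 7.82, with both number 2 values above the number 1 value of the same treatment, and is the 1 higher gene whose numbers overlapped across treatments. The other probe sets of HOPX did not share its difference, at 0.05 and 0.27, and at -0.10 and 0.03. Genes known from neurons, PCLO, NTS, SNCAIP, LRRK2 and MAPK10, differed by 1.03 to 1.51 and by 1.07 to 1.54. In all, 6 non-coding transcripts were higher, from FAM167A-AS1 (1.71 and 2.83) to RAP2C-AS1 (1.04 and 1.28). The remaining higher genes had no role in common, and the smallest shared differences were those of ATP8A1 (1.001 and 1.58), STARD4 and ARHGEF28 (1.01 and 1.21). Just outside the rule lay SLC7A2 (0.997 and 1.45), CCNG2 and LHX2 (1.30 and 0.99).

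The 18 lower genes were largely non-coding, nuclear or immune genes. LOC105371703, a non-coding transcript, read 9.39 and 7.46 in the non-silencing pair and 9.41 and 7.59 in the knockdown pair. The number 1 arrays were almost equal, as were the number 2 arrays. ASXL1, a chromatin regulator of the Polycomb system, read 9.32 and 7.54, then 9.72 and 8.09. None of the 5 other ASXL1 probe sets shared that difference, with values from -0.32 to 0.10. TAF15, an RNA-binding protein of the FET family, read 10.28 and 8.77, then 10.36 and 9.11. RCC1, the exchange factor of the GTPase RAN, differed by -1.36 and -1.003, and RRP7A, a factor of ribosome assembly, by -1.06 and -1.05. HINT3, a nucleotide hydrolase (-1.57 and -1.38), ZDHHC16, a palmitoyltransferase (-1.44 and -1.28), SLC38A5, an amino acid transporter (-1.14 and -1.25), FAM43A (-1.66 and -1.09) and SAPCD2 (-1.06 and -1.27) were further protein-coding genes. The other probe sets of TAF15, from -0.55 to 0.22, were not 2-fold apart. Those of HINT3 differed by 0.24 and 0.74, and by -0.35 and -0.56. LINC00408, MZF1-AS1, LINC02985 and LINC00470 were the other non-coding ones.

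Immune genes were also among the lower ones. PIM2, a survival kinase and target of STAT factors, read 7.56 and 6.44, then 8.40 and 6.77. TNF read 7.87 and 6.82, then 8.67 and 7.54. CD14, the lipopolysaccharide co-receptor, read 7.28 and 6.21, then 7.63 and 6.51, and ITGAE, the integrin CD103, read 9.73 and 8.73, then 9.92 and 8.90. In all of these genes both number 2 arrays were below both number 1 arrays. CD14 was the 1 of 16 monocyte and macrophage markers called, and LYZ, C1QA and C1QB of that list lay between 3.88 and 4.92 on all arrays, with CSF1R between 6.88 and 7.08. RRP7A, ITGAE and RCC1 were just inside the 2-fold rule, and MRPS25 (-1.03 and -0.999), CTU2 (-1.10 and -0.99) and IFRD2 (-0.96 and -1.07) just outside.

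The lists of MYC targets, G2 and M phase, oxidative phosphorylation and proteasome genes had calls in 1 direction, lower in number 2, for a minority of their genes. The shares were 29.2%, 26.7%, 12.5% and 7.41% in that order, against 4.45% of all genes. These lists were bright, with median levels of 10.8, 10.3, 11.9 and 11.4 against 6.04 over all genes. Among genes at or above the median level, 16.01% of the bin with the shortest genomic spans were called lower. Of 24 genes listed as MYC targets of ribosome assembly, 7 were called lower and 0 higher, the medians were -0.28 in both pairs, and 20 genes were below 0 in both. The 7 were NOP16, RRP12, UTP20, PA2G4, SRM, ODC1 and CAD, so the list is broader than ribosome assembly. CAD, of pyrimidine synthesis, differed by -0.78 (SE 0.13) and SRM, the spermidine synthase, by -0.77 (SE 0.10). MYC itself read 9.83 and 9.01, then 10.41 and 9.19, and was lower by -1.02 (SE 0.13, limma adjusted p = 0.0169). Of 30 genes of G2 and M phase, 8 were called lower and 0 higher. TPX2, a spindle assembly factor, differed by -0.80 (SE 0.10). UBE2C, a ubiquitin-conjugating enzyme that works with the anaphase-promoting complex, differed by -0.72 (SE 0.10). Of 40 oxidative phosphorylation genes, 32 were below 0 in both pairs and 5 were called lower, led by ATP5F1D (-0.90, SE 0.11). Of 27 unfolded protein response genes, 6 were called lower, among them SDF2L1 (-0.94) and CALR (-0.75), and 4 higher, among them DNAJB9 (0.86). Of 27 proteasome subunits, PSMD3 (-0.65) and PSMD8 (-0.57) were called lower. Cytosolic ribosomal proteins gave 0 calls in 51 genes, with a median of 0.01 in both pairs and the largest difference 0.20 (RPS3).

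Of 29 JAK-STAT targets, PIM2, MYC, BATF (-0.85, SE 0.16) and BATF3 (-0.71, SE 0.10) were called lower and 0 higher. That is 13.8% called lower, against 4.45% of all genes. The list was bright, with a median level of 8.40 against 6.04 over all genes. Among genes at or above the median level, 2.68% of the bin with the longest genomic spans and 16.01% of that with the shortest were called lower. The list's median was 0.03 in the non-silencing pair and -0.21 in the knockdown pair. Of 31 NF-kB targets, TNF and LTA (-0.60, SE 0.11) were called lower (6.45%), and IL6 (-1.05, limma adjusted p = 0.22) did not pass. The medians of that list were 0.13 and -0.13. TNFRSF8 (-0.82), CD86 (-0.94), IRF4 and BATF3 were the 4 of 23 Hodgkin lymphoma markers called, all lower (17.4%, against 4.45% of all genes). That list was bright too, at a median level of 8.69, and its medians were 0.03 and -0.11. CD86 was at 0.34 with the brightest probe set that has no shared-sequence mark. Of 47 cytokine and chemokine genes 4 were called higher, including TNFSF8 (1.48, SE 0.32), the ligand of CD30, and 3 lower. Of 36 immediate-early and MAP kinase feedback genes, DUSP4 (-0.81), FOSL1 (-0.66) and EGR3 (-0.58) were called lower and JUND higher. Of 38 genes of the integrated stress response, 5 were called lower (13.2%), including SLC7A5 (-0.74) and ATF5 (-0.73), and 2 higher, SLC38A2 (0.81) and SLC1A4 (0.77). Of 18 NRF2 genes, AKR1C1 was called higher and TALDO1 (-0.70) and NQO1 (-0.56) lower. T and NK cell markers (24) and endothelial markers (15) gave 0 calls, and of 14 epithelial markers KRT7 was called, at -0.58. Some T cell transcripts were high on all arrays, CD3D at 10.23 and 9.89, then 10.36 and 9.76, without passing (limma adjusted p = 0.0557).

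**Figure D3:**
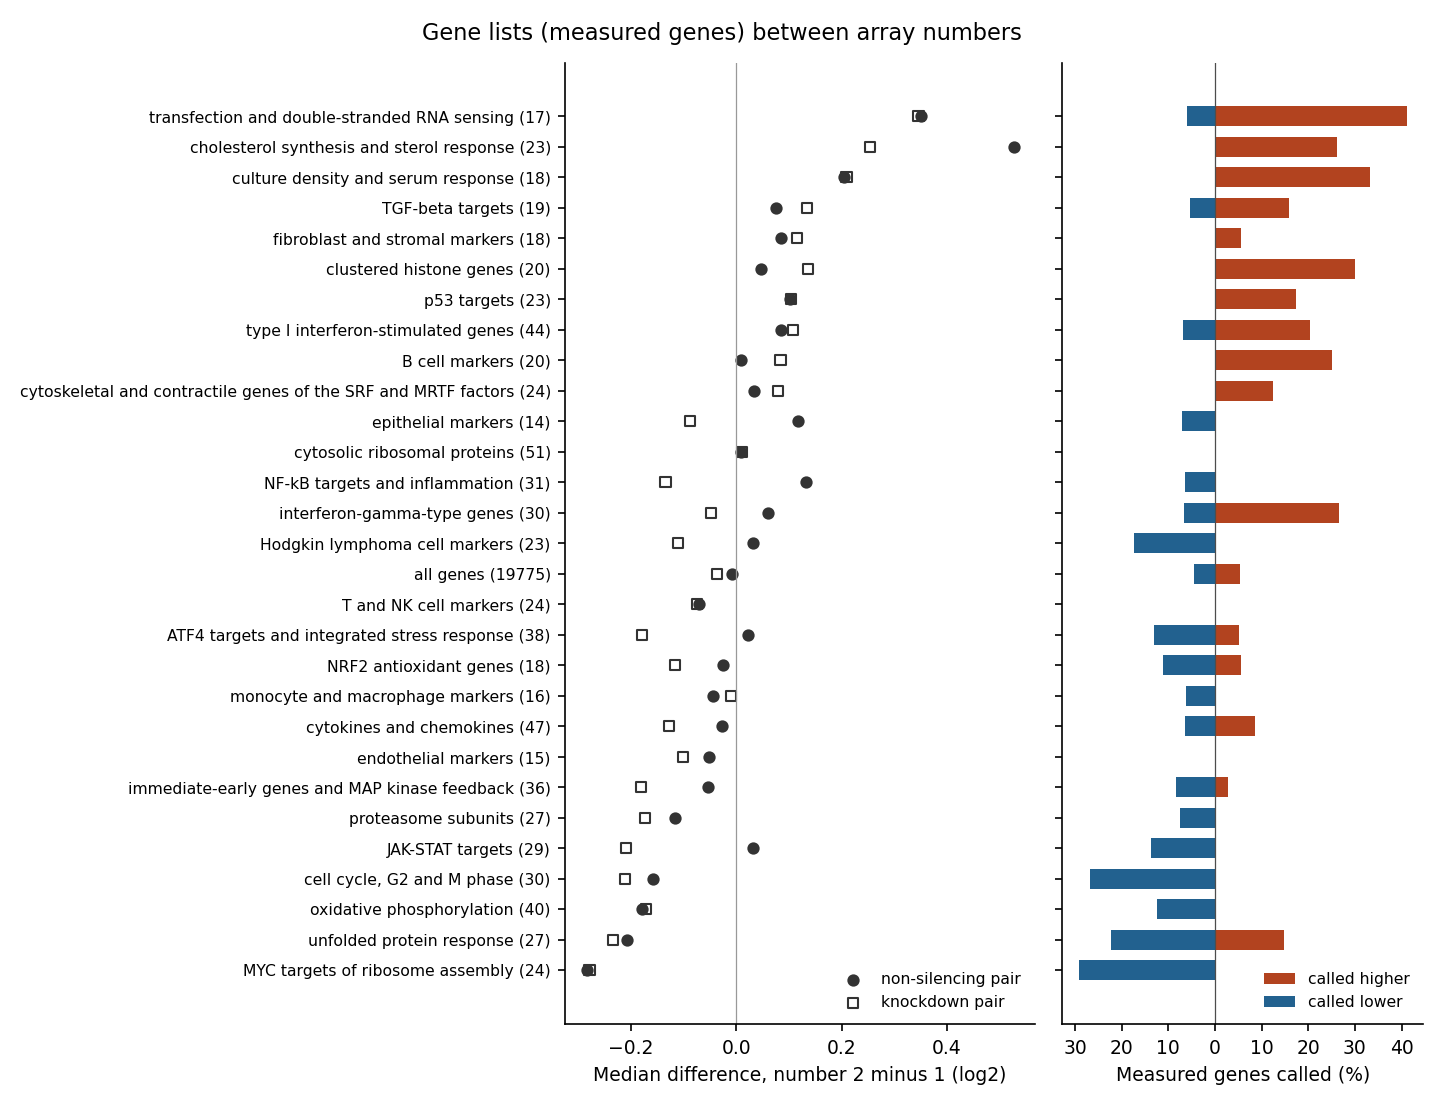
Left, median log2 difference of number 2 minus number 1 for each gene list (measured genes in parentheses) in the non-silencing pair (circles) and the knockdown pair (squares); right, percent of measured genes called higher (to the right) or lower (to the left) by limma. Double-stranded RNA sensing has the highest share called higher. The list named MYC targets of ribosome assembly, which is broader than its name, has the highest share called lower.

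The brightest probe set of a gene set its value, and other probe sets of the same genes gave a check with other probes on the same RNA. For the 110 higher genes, 72 had 182 further probe sets; 132 of these differed in the same direction in both pairs and 40, in 28 genes, were at least 2-fold. Among the 76 of them at or above 5.11, the median of all values, 67 shared the direction. For the 18 lower genes, 10 of 18 further probe sets in 8 genes shared the direction, and 1 was at least 2-fold. Of the higher genes 38, and of the lower genes 10, had a single probe set.

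Genes that were higher in number 2 were long. The median genomic span, from a RefSeq gene table of GRCh38.p14, was 90.5 kb for the 110 higher genes and 13.7 kb for the 18 lower ones, against 24.7 kb for all 19738 genes with a span. Spans over 100 kb were found in 44.5% of the higher genes, in 0 of the lower ones and in 16.9% of all genes. The 1069 genes called higher had a median span of 71.3 kb and the 879 called lower one of 13.6 kb. When all genes were split by span into 5 bins of like size, 1.65% of the bin with the shortest and 12.1% of the bin with the longest genes were called higher, whereas 6.33% and 1.85% were called lower. Among the 9869 genes at or above the median level with a span, split in the same way, the shares went from 2.79% to 19.0% higher and from 16.01% to 2.68% lower. Among the role groups of the higher genes the medians ran from 6.49 kb for the histone H2B genes and 16.2 kb for the interferon-inducible genes, both below that of all genes, to 345 kb for the cyclic nucleotide and phospholipid enzymes. What the span has to do with the numbers was not tested.

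**Figure D4:**
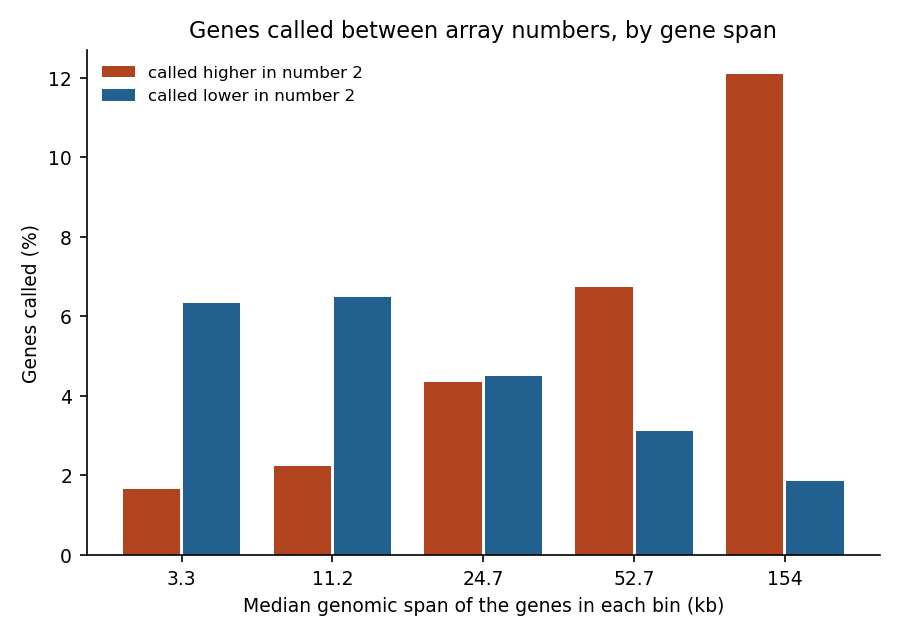
Percent of genes called higher (first bar) or lower (second bar) in number 2 for 5 bins of all genes ordered by genomic span, with the median span of each bin on the x axis. The share called higher goes from 1.65% in the bin of the shortest to 12.1% in the bin of the longest genes, and the share called lower from 6.33% to 1.85%.

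The members lay on 23 chromosomes and formed 8 pairs of near neighbours with at most 2 genes between them. These were GBP3 with GBP1, CD48 with SLAMF7, the AKR1C genes, ABCD2 with LRRK2, MACROD2 with FLRT3, PDE7B with PDE7B-AS1, and SAMD9 with SAMD9L. Each such pair was higher in number 2.

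Control probe sets moved with the numbers in part. The log2 signal of the actin 3′ control minus that of its 5′ control was 1.31 and 0.97 in the non-silencing pair and 1.33 and 0.97 in the knockdown pair, so that it was lower in number 2 by nearly the same step in both treatments. The same measure for GAPDH differed by -0.11 and -0.03, the 18S controls by -0.20 in both pairs, and the 21 spike-in probe sets by -0.31 to 0.17. Arrays of the same number correlated at 0.994 and 0.995 over all probe sets, and arrays of the same treatment at 0.991 and 0.989. The part of RNA quality or amplification in the gene differences was not tested.

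The rule did not use the knockdown comparison, but the same 4 arrays enter it, so an array that stands apart moves both differences. The shares of all genes that follow are mostly of genes the rule did not choose. PTPN1, the targeted phosphatase gene, read 8.16 and 8.40 in the non-silencing pair and 7.002 and 7.36 in the knockdown pair. It was lower in both knockdown arrays, and between numbers it differed by 0.24 and 0.36 without passing the test (limma adjusted p = 0.132). Of the 110 genes higher in number 2, 86 (78.2%) had a lower mean in the knockdown arrays, a sign that 51.8% of all genes had. Their median difference, knockdown minus non-silencing, was -0.38, against -0.01 over all genes, and 79 were lower in the knockdown within both numbers, against 29.8% of all genes. Of the 18 genes lower in number 2, 17 had a higher mean in the knockdown arrays, with a median of 0.21, and 13 were higher within both numbers, against 27.8% of all genes. Knockdown array 1, which enters both differences, was the lowest of the 4 arrays for 96 of the 110 genes, against 60.5% of all genes with both number 2 arrays above both number 1 arrays. It was the highest for 14 of the 18 lower genes, against 58.3% of all genes with the opposite order. The part of this array in the knockdown differences of the 128 genes was not tested.

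Single genes for the most part did not pass in that comparison. Without the number in the fit, limma called 0 genes for the knockdown, with 509 at an unadjusted p under 0.05. With the array number as a replicate block, 72 genes (0.364%) were called, 18 lower (0.091%) and 54 higher (0.273%) in the knockdown; 9 of the 72 were among the 110 higher genes and 0 among the 18 lower ones, but the labels do not say that a number pairs the arrays. Of the 9, SNX7, F5, CYP4X1, LRIG3, AKR1C2 and SMAD6 were lower in the knockdown and HOPX, RSPH1 and SLAMF7 higher. HOPX was higher by 2.04 (SE 0.10, limma adjusted p = 0.00605 with the block), and CYP4X1 was lower by -1.75 (SE 0.19, limma adjusted p = 0.0354 with the block). The HOPX difference rests on 1 probe set. Its other probe sets were dim and read 3.39 and 3.43, then 3.29 and 3.57, and 3.80 and 3.70, then 3.93 and 3.95. The other probe sets of SLAMF7 were less than 2-fold apart between the treatments within each number. At least 2-fold apart by mean between the treatments were 15 of the 110 genes, 12 lower and 3 higher, against 0.592% of all genes. SNX7 differed by -1.30 between the arrays numbered 1 and by -1.32 between those numbered 2. TNF, of the lower genes, was higher in the knockdown by 0.76, which did not pass.

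**Figure D5:**
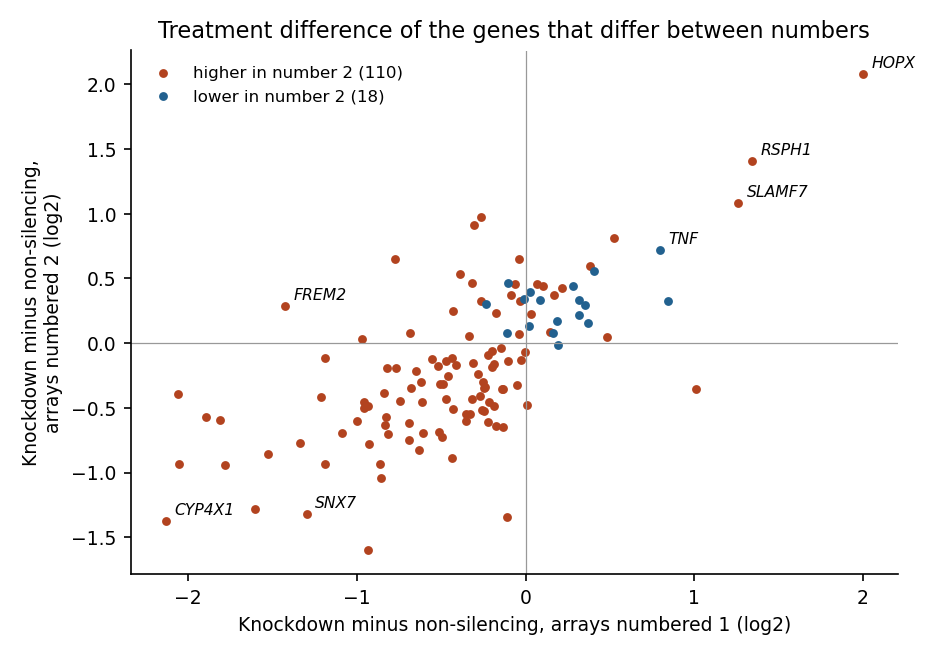
Log2 difference of knockdown minus non-silencing between the arrays numbered 1 (x axis) and between the arrays numbered 2 (y axis) for the 110 genes higher and the 18 genes lower in number 2. Most of the higher genes, 79, lie at the lower left, and 13 of the lower genes lie at the upper right.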

How the data were processed

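Total RNA of 4 arrays was compared, 2 per treatment, grouped and numbered by their titles. The deposited values are log2 expression values that the authors made with RMA, per the submitters' processing notes; the sources used here name no software or version. That method equalises the distributions of the arrays, which hides any change in total RNA, and makes differences of dim probe sets smaller. The number of arrays limits the precision.

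Of 54675 probe sets, 41097 had 1 gene symbol in the platform's annotation, 1801 several and 11777 none. Symbols were looked up in a RefSeq table of GRCh38.p14, in which 54 were not found. Each of 19775 genes was represented by its brightest probe set by the mean of all arrays.

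Number 2 was compared with number 1 in limma 3.58.1 under R 4.3.3 (lmFit and eBayes), with treatment as a term, 1 residual degree of freedom and 4.85 prior degrees of freedom, two-sided, adjusted by the Benjamini-Hochberg method with a threshold of 0.05. The knockdown was tested without the number and, as an alternative, with it as a block. P-values measure the spread between these arrays, which is technical by the series' own description. The fit was tested on simulated data.

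Genes named were the 12 highest and 12 lowest by the smaller pair difference, the 3 just inside and outside the rule each way, list members that met it, up to 4 further members of a list by size of difference, ACTA2 and PTPN1. Further members were named with their values known. The members, lists and rules were chosen with earlier results of these data known. Alternatives were other normalizations, probe sets, filters, fold thresholds and variance models, and leaving out each array.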

Additional observations from a re-analysis of the deposited data

Results flagged for a closer look

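COL15A1 and GAS1 moved in opposite directions in the 2 pairs. COL15A1, a basement membrane collagen, read 5.29 and 6.89 in the non-silencing pair and 9.20 and 7.39 in the knockdown pair, so it differed by 1.61 in the first pair and -1.81 in the second. GAS1, a membrane protein of growth arrest, read 11.77 and 10.75, then 10.27 and 11.57, a difference of -1.02 and 1.30. With 1 array per treatment and number, the difference between the pairs was not tested.

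The medians of 6 gene lists had opposite signs in the pairs, and these differences were not tested either. JAK-STAT targets had a median of 0.031 in the non-silencing pair and -0.21 in the knockdown pair. NF-kB targets stood at 0.13 and -0.13, and the integrated stress response at 0.023 and -0.18. Hodgkin lymphoma markers stood at 0.031 and -0.11, epithelial markers at 0.12 and -0.087, and interferon-gamma-type genes at 0.060 and -0.048.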

How the results depend on the processing

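The 110 genes at least 2-fold higher became 61 with the mean of all probe sets, 73 among genes at or above the median level, 493 at 1.5-fold and 21 at 3-fold, and ranged from 204 to 296 in the single pair left without 1 array. The 18 lower genes became 11, 289 at 1.5-fold and 2 at 3-fold, and ranged from 58 to 62 without 1 array. Calls by limma, 1069 higher and 879 lower, became 299 and 234 with no treatment term, 1648 and 1815 among genes at or above the median level, 1862 and 1858 with trend and robust variances, 0 and 0 unmoderated, and 216 and 83 in a test against a fold of 1.2. They ranged from 0 to 12 and from 0 to 4 without 1 array, where 1 residual degree of freedom remains. All 128 genes kept their direction in the fits that held them, 88 of them in the fit on genes at or above the median level, except 2 under the brightest probe set with no _s_ or _x_ in its name. The 2 were SMAD6, at -0.073 (limma adjusted p = 0.733), and HOPX, whose probe set under that setting differed by -0.10 and 0.03. Of genes that the rule did not choose, IGKC was then at -0.23 (limma adjusted p = 0.247) and CD86 at 0.34 (limma adjusted p = 0.107). Quantile normalization and centring kept all 128 calls. With the mean of all probe sets the list median moved from 0.373 to 0.159 for double-stranded RNA sensing, from 0.175 to 0.094 for culture density and serum response, from -0.204 to -0.125 for the unfolded protein response and from -0.126 to -0.071 for proteasome subunits. Among genes at or above the median level it moved from 0.078 to 0.170 for type I interferon-stimulated genes and from 0.110 to 0.687 for clustered histone genes.

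For the knockdown, the paired analysis with the array number as a replicate block called 72 genes against 0 without it, and the fits without 1 array called 0 to 1. With 2 pairs the numbers are not shown to pair the arrays. The causes of these changes were not tested, apart from the arrays or genes left out. The 4 arrays, of 1 line and described as technical replicates, limit every value, and dim probe sets are the least certain.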

Other observations

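Some probe sets without a single named gene also met the 2-fold rule, at a lower rate than the genes. Of 13522 of them, 27 met it upward and 11 downward, together 0.281%, against 0.647% of the genes.

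The promoters of the 110 higher genes had a median G and C content of 58% in the 96 matched, against 63% over the promoters of all genes tested and 58.3% over all promoters in the table. The letters TATAAA, searched on both strands, were in 11.46% of them and in 8.76% of the promoters of all genes tested and 11.95% of all promoters. The letters CCAAT were in 40.6%, 36.1% and 35.7%.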
